A study of Mus musculus with 4 samples.

Results

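The genes of glycolysis and of the hypoxia response were examined in macrophages grown from mouse bone marrow and cultured beside tumour cells. The members were a list of 36 gene symbols, 22 of glucose uptake, glycolysis and lactate export, and 14 of oxygen sensing and the hypoxia response. All 36 were among the 21878 genes listed, and all 36 passed the filter on low counts that left 12494 genes for testing. Glycolysis turns glucose into pyruvate in the cytosol, and cells that rely on it turn the pyruvate into lactate and export it. Hypoxia-inducible factor (HIF) is the transcription factor that switches these genes on when oxygen is short, because the prolyl hydroxylases that mark its α subunit for destruction need oxygen. Macrophages also stabilize HIF-1α under inflammatory stimuli, and activated macrophages are known for a high rate of glycolysis.

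The series held 4 libraries of bone-marrow-derived macrophages (BMDM), all from C57BL/6 mice, aged 8 weeks per the labels, and all cocultured with MC38, a mouse colon cancer line. Of these, 2 were labelled WT (wild type) and 2 anti-Act1, the study's name for mice with a knockdown of Act1, an adaptor of IL-17 receptor signalling, that is specific to macrophages. The driver of that knockdown, the sex of the mice and the oxygen level of the culture were not given in the sources used here. The labels gave 48 h of coculture and the study 24 h in 1 place, and neither said how many mice stood behind a library. For the pathway enrichment, the study's methods name macrophages of Apc Min/+ mice and of their cross with anti-Act1 mice. Its figure legend names WT and anti-Act1 mice, as the labels do. The comparison asked how BMDM of the 2 genotypes differed once exposed to tumour cells.

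Totals were 55435063 to 75062945 counts per library, with the 2 WT libraries the deeper ones. The labels were not borne out by Traf3ip2, the gene that encodes Act1. It had 6.98 and 7.54 CPM (counts scaled to a common library total after TMM normalization) in the WT libraries and 9.63 and 7.84 CPM in the anti-Act1 libraries, a log2 fold change of 0.27 (SE 0.12, adjusted p = 0.117). The library kit named does not mark strand, so transcripts of either strand of the gene were counted alike. The study measured Act1 in these mice by other assays, which were not analysed here. Every direction below therefore rests on the labels, and "anti-Act1 libraries" stands for the libraries labelled so. Of the 4 Y-linked genes examined, all 4 were lower, at 2248 to 7360 counts in the WT libraries and 0 or 1 in the anti-Act1 libraries, so that the sex of the mice and the label cannot be told apart. The defining markers of macrophages were present, with 11 markers summing to 26232 to 27484 CPM, while 6 of 12 markers of epithelial tumour cells (Krt8, Krt18, Krt20, Cldn3, Cldn4, Cdx2) were at 0 in every library and all 12 summed to 1.30 to 2.09 CPM.

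Most of the members were higher in the anti-Act1 libraries, by small amounts. With edgeR's quasi-likelihood test and Benjamini-Hochberg adjustment over 12494 genes, 28 of 36 rose, 1 (Gapdh) fell and 7 did not pass (Pfkm, Pfkfb4, Eno2, Pkm, Pdk1, Hif1a and Kdm3a). Over all genes tested, 20.7% were called, 10.9% higher and 9.76% lower. Both anti-Act1 libraries lay above both WT libraries for 32 members, against 28.4% of all genes tested. The median log2 fold change of the members was 0.28, against -0.0046 for all genes tested, and it lay between 0.22 and 0.31 over the 4 pairs of 1 anti-Act1 and 1 WT library. Only 4 members were at least 1.5-fold higher: Adm, Ndrg1, Slc2a1 and Ddit4. Together the 36 members took 2.15% and 2.12% of the counts of the WT libraries and 2.43% and 2.52% of those of the anti-Act1 libraries.

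Both arms of the list rose in most of their genes. The 22 glycolysis members had a median log2 fold change of 0.19, with 16 higher, 1 lower and 5 not called. The 14 members of oxygen sensing and the hypoxia response had a median of 0.44, with 12 higher and none lower, and all 14 fitted values were positive. The difference between the arms was not tested, and the members share libraries. In bulk RNA, fewer cells that carry a transcript and less of it per cell cannot be told apart.

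**Figure D1:**
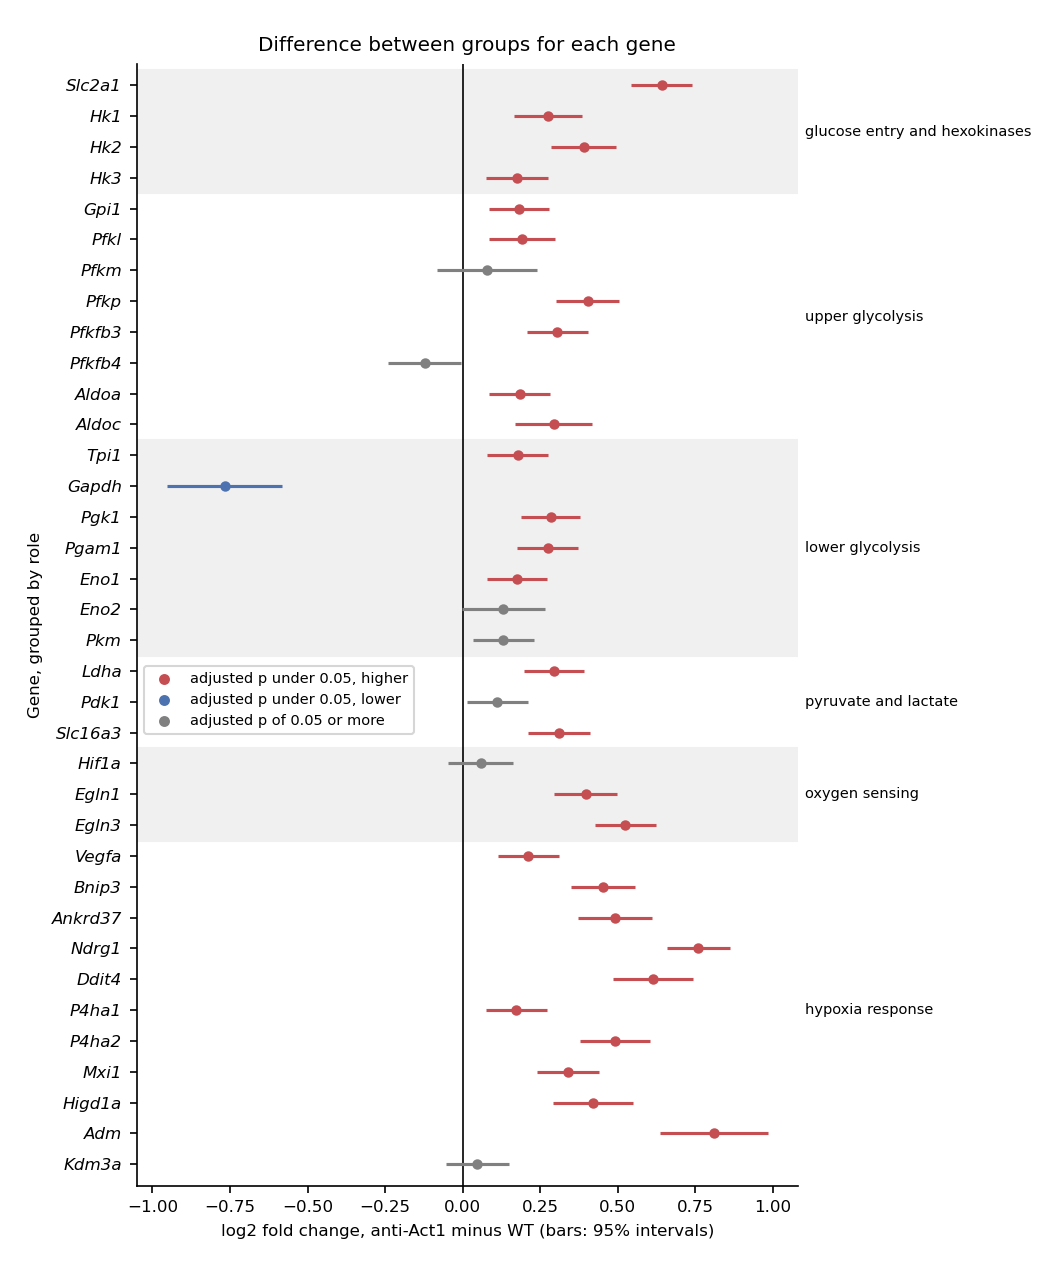
Log2 fold change of each of the 36 genes between the anti-Act1 and WT libraries (x axis), with genes grouped by role on the y axis; points are the edgeR estimates and bars are 95% intervals from their standard errors. Of the 36 points, 28 are called higher, Gapdh alone is called lower, and the largest rises are in Adm, Ndrg1, Slc2a1 and Ddit4.

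HIF binds DNA at a core of 5 bases, ACGTG or GCGTG, which reads CACGT or CACGC on the other strand. RefSeq promoter windows (GRCm38.p6) of 250 bases before to 50 bases after the gene's start were found for 35 members, all but Ndrg1, and for 9624 of the genes tested. The core lay in at least 1 window of 32 of the 35 members (91.4%), of 66.7% of those tested genes and of 46.7% of all 27025 genes with a window. Genes can have several start sites: per window the shares were 77.4% of 53 for members and 60.8% of 12283 for tested genes, with medians of 21 and 20 CG pairs. The core lay in 25 of 27 members that rose (92.6%) and in 7 of 8 that did not (87.5%). A match in the letters is no evidence of binding.

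The sequences before the start are shown for the 4 members with the largest rises among those with a window and for Gapdh, the member that fell, to show that the core stands in both. They run 5′ to 3′ on the gene's strand, cores in capitals, and stop where the first GENCODE M21 exon begins. The stretches are chr7:110627407-110627656, plus strand (Adm); chr4:119108495-119108710, plus strand (Slc2a1); chr10:59951835-59952020, minus strand (Ddit4); chr12:54203875-54204124, minus strand (Egln3); and chr6:125165774-125166023, minus strand (Gapdh).
Adm: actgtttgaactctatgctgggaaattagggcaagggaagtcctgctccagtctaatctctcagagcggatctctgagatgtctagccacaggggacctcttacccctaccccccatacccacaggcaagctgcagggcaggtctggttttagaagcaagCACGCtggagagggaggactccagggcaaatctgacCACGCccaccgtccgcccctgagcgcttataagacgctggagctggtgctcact
Slc2a1: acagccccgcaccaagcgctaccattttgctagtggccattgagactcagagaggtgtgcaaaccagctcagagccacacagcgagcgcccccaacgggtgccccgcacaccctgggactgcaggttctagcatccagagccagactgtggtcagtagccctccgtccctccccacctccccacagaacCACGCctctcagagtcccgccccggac
Ddit4: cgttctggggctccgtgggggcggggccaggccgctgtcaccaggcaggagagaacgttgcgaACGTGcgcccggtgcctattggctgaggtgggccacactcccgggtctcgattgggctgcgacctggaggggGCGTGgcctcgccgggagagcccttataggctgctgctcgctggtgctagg
Egln3: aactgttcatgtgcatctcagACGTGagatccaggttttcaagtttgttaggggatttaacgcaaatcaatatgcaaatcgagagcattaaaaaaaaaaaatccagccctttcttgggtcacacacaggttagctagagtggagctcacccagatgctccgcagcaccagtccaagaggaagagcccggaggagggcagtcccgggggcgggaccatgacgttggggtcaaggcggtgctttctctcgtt
Gapdh: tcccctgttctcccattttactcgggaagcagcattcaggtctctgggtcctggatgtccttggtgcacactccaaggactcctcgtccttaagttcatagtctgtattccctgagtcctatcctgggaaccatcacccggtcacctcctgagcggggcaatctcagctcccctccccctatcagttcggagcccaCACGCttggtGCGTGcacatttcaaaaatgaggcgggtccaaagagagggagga
Adm held the core at 90 and 54 bases before its start, Ddit4 at 187 and 115, and Egln3 once, at 229. Slc2a1 held it at 61 and also at 36, where it runs into the exon and so is not shown whole. Gapdh held 2 before its start, at 54 and 44.

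Glucose entry had the largest rise among the 22 glycolysis members. Slc2a1 encodes GLUT1, the main glucose carrier of activated macrophages. It stood at 434 and 439 CPM in the WT libraries and at 669 and 692 CPM in the anti-Act1 libraries. The groups did not overlap, and the rise was 1.56-fold (log2 0.64, SE 0.05, adjusted p = 1.99e-14).

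The hexokinases, which trap glucose in the cell as glucose 6-phosphate, all rose. Hk2, the form induced by HIF, went from 238 and 256 CPM to 311 and 336 CPM (1.31-fold, log2 0.39, SE 0.05, adjusted p = 1.01e-07). Hk1, the form found in most tissues, was at 130.1 and 142 CPM against 156 and 174 CPM (1.21-fold, adjusted p = 0.000156). Hk3, a form typical of myeloid cells, was at 355 and 347 CPM against 382 and 411 CPM (1.13-fold, adjusted p = 0.0106). The WT and anti-Act1 libraries were apart in all 3 genes. The calls of Hk1 and Hk3 were lost without anti-Act1 replicate 2.

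Among the genes of upper glycolysis, 6 of 8 rose and none fell. Phosphofructokinase 1 commits sugar to the pathway, and of its 3 subunit genes Pfkp changed most, from 147 and 144 CPM to 188 and 198 CPM (1.32-fold, log2 0.40, SE 0.05, adjusted p = 3.04e-08). Pfkl, the liver-type subunit, was at 343 and 325 CPM against 359 and 403 CPM (1.14-fold, adjusted p = 0.00696), a call lost without WT replicate 2 and without anti-Act1 replicate 2. Pfkm, the muscle-type subunit, was at 18.2 and 17.5 CPM against 17.97 and 19.8 CPM, and its groups overlapped (adjusted p = 0.566).

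Pfkfb3 and Pfkfb4 make fructose 2,6-bisphosphate, the activator of phosphofructokinase 1, and their values went opposite ways. Pfkfb3 was at 311 CPM in both WT libraries and at 379 and 389 CPM in the anti-Act1 libraries (1.24-fold, log2 0.31, SE 0.05, adjusted p = 5.41e-06). Pfkfb4 was at 66.4 and 61.1 CPM against 56.8 and 60.4 CPM, with a log2 fold change of -0.12 that did not pass (SE 0.06, adjusted p = 0.155). Both anti-Act1 libraries were below both WT libraries in Pfkfb4, by a margin of less than 1 CPM. Without WT replicate 2 its call was lower (adjusted p = 0.0456).

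Gpi1, which turns glucose 6-phosphate into fructose 6-phosphate, was 1.13-fold higher (1110.2 and 1099 CPM against 1209.5 and 1295 CPM, adjusted p = 0.00601). Aldoa and Aldoc encode aldolases, which split the sugar into trioses. Aldoa was at 2184 and 2166 CPM against 2369 and 2571 CPM (1.14-fold, adjusted p = 0.00538), and Aldoc at 42.4 CPM in both WT libraries against 49.1 and 54.9 CPM (1.23-fold, adjusted p = 0.000406). The gap between the 2 anti-Act1 libraries was wider than that between the WT libraries in all 3 genes.

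Lower glycolysis, from triose to pyruvate, had 4 rises, 1 fall and 2 genes not called among 7. Pgk1, the first step that yields ATP, was at 1672 and 1600.0 CPM against 1968 and 2013 CPM (1.22-fold, log2 0.28, SE 0.05, adjusted p = 1.43e-05). It is X-linked, and the groups also differed in the Y-linked genes, so an effect of sex on it cannot be told apart from the label. Pgam1, the mutase of the next step, was at 939 and 962 CPM against 1107 and 1191 CPM (1.21-fold, adjusted p = 3.79e-05).

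Tpi1, which interconverts the trioses, was 1.13-fold higher (1357 and 1269.7 CPM against 1446 and 1525 CPM, adjusted p = 0.00791). Eno1, the main enolase, was also 1.13-fold higher (2374 and 2291 CPM against 2563 and 2701 CPM, adjusted p = 0.00739). Both groups were apart in each, but both calls were lost without WT replicate 2 and without anti-Act1 replicate 2. Eno2, the neuronal enolase, was at 29.2 and 27.9 CPM against 31.1 and 31.3 CPM (adjusted p = 0.189). Pkm, the pyruvate kinase of most tissues, was at 3217 and 3122 CPM against 3328 and 3614 CPM (1.09-fold, adjusted p = 0.0551), just outside the threshold of 0.05. It was called higher without WT replicate 1 (adjusted p = 0.0447) and without anti-Act1 replicate 1 (adjusted p = 0.0166), and with DESeq2 (adjusted p = 0.0327).

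**Figure D2:**
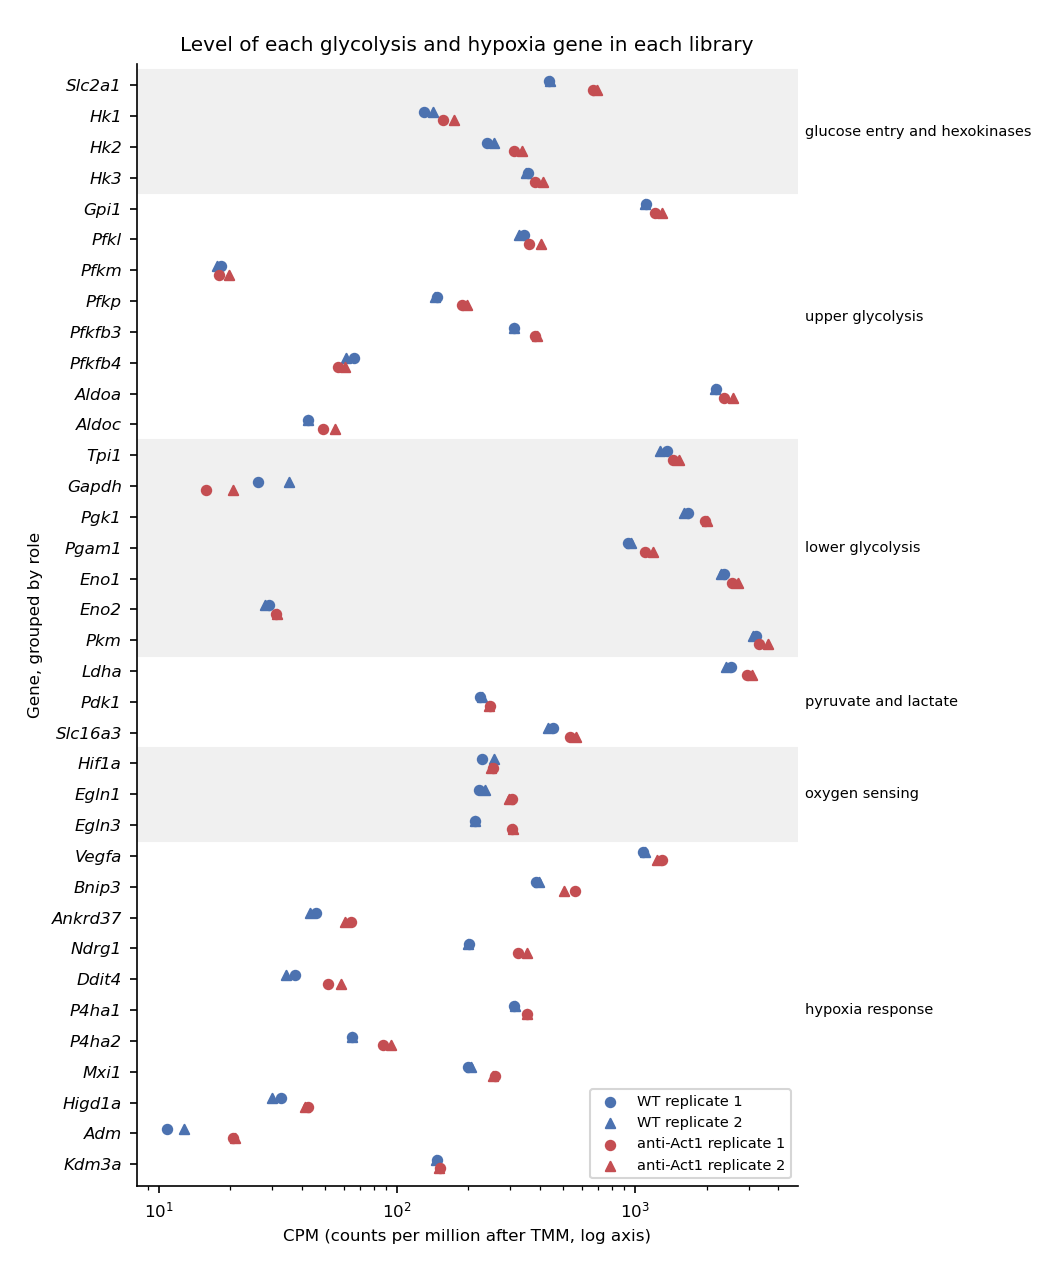
CPM after TMM normalization (x axis, log scale) of each gene in each of the 4 libraries, with genes grouped by role on the y axis; circles are replicate 1 and triangles replicate 2, WT in blue and anti-Act1 in red. In 32 genes both red points lie to the right of both blue points, and in Gapdh and Pfkfb4 both lie to the left.

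Gapdh stood apart from the rest of the pathway. It encodes the dehydrogenase between the aldolase and kinase steps and is widely used as a reference gene. It had 26.2 and 35.3 CPM in the WT libraries and 15.8 and 20.5 CPM in the anti-Act1 libraries, so the groups did not overlap. The fall was to 0.587 of the WT level (log2 -0.77, SE 0.10, adjusted p = 1.27e-08). Per length its level was 17 and 23.1 FPKM (counts scaled to gene length and library total) against 10.2 and 13 FPKM, whereas its neighbours Tpi1 and Pgk1 averaged 828 and 904 FPKM in the WT libraries.

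A match of at least 150 bases at 95% identity or more was sought between each member's transcripts and those of other genes in GENCODE M21. Gapdh had such a stretch in 95 other annotated genes, the next members, Ldha and Bnip3, in 5 each. Of those 95, only Gapdh-ps15 and Vmn2r60 were in the count table, and with their counts added Gapdh still had 16.0 to 35.6 CPM. Reads from Gapdh and its copies may have been split or left out by the authors' counting, whose rule for reads that match several places was not given in the sources used here. The Gapdh value is uncertain for that reason, and the part of the copies in its fall was not tested. Of the 36 members, 17 had a near copy in the annotation and 19 had none. Only 3 had one in the count table: Gapdh, Eno1 (Eno1b) and Pfkp (Pitrm1). Matches on either strand were counted, so a gene that only overlaps a member can count as a near copy.

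**Figure D3:**
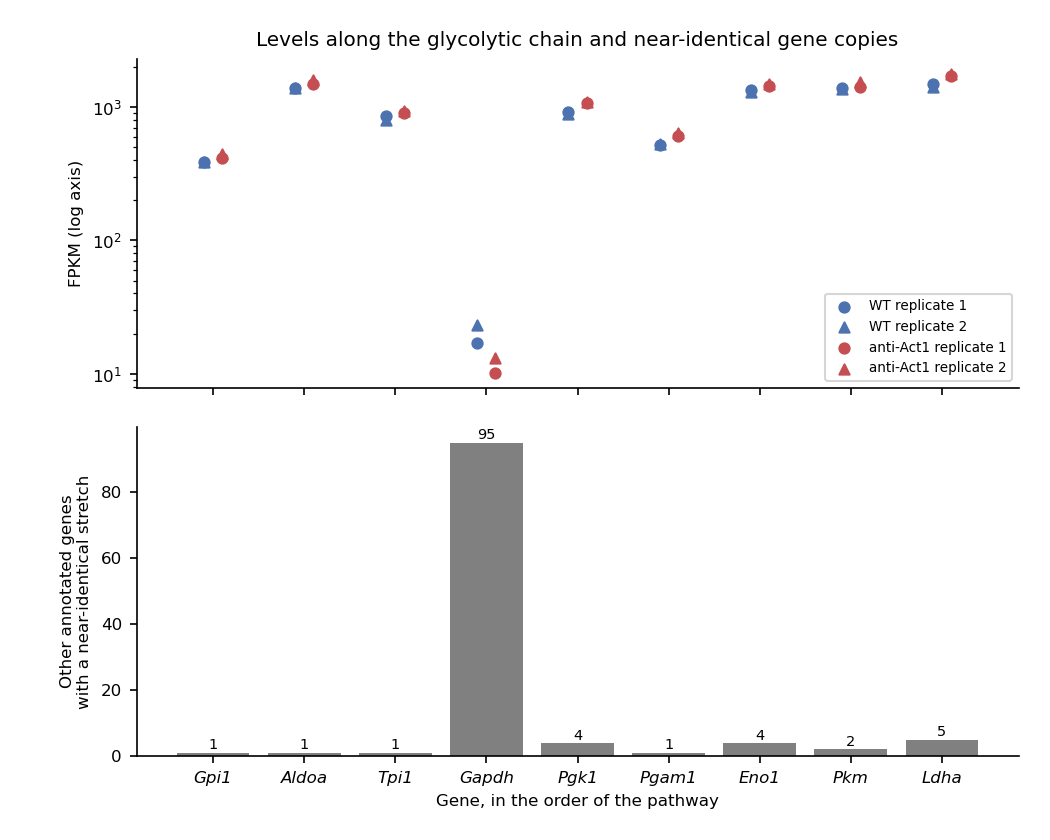
Top: FPKM (log axis) of 9 enzymes in the order of the pathway, by library (circles replicate 1, triangles replicate 2, WT blue, anti-Act1 red). Bottom: the number of other annotated genes that share a near-identical stretch with each, 95 for Gapdh and 1 to 5 for the other 8; Gapdh lies at 10.2 to 23.1 FPKM, below every other enzyme of the chain.

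Of the 3 genes for the fate of pyruvate, 2 rose. Ldha, which reduces pyruvate to lactate, was at 2525 and 2412 CPM against 2946 and 3102 CPM (1.23-fold, log2 0.29, SE 0.05, adjusted p = 8.46e-06). Slc16a3 encodes MCT4, the carrier that exports lactate. It was at 454 and 432 CPM against 531 and 567 CPM (1.24-fold, log2 0.31, SE 0.05, adjusted p = 5.72e-06). Pdk1, the kinase that keeps pyruvate out of the mitochondrial dehydrogenase, was at 224 and 229 CPM against 245 and 243 CPM (1.08-fold, adjusted p = 0.117).

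Leaving out a library changed several glycolysis calls. Anti-Act1 replicate 2 lay above anti-Act1 replicate 1 in 21 of 22 glycolysis members, by a median of 0.097 on the log2 scale, as against 5 of 14 oxygen-sensing and hypoxia members and 6239 of 12494 genes. The only exception among the glycolysis members was Pdk1. Without that library, 9 members lost their call (Hk1, Hk3, Gpi1, Pfkl, Aldoa, Aldoc, Tpi1, Eno1 and P4ha1), 19 stayed called higher and the median of all members was 0.23. Without WT replicate 2, 25 were called higher, with Pfkl, Tpi1 and Eno1 lost. Without anti-Act1 replicate 1, 28 were called higher and the median was 0.33.

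The sensor of oxygen was examined next. Hif1a encodes the α subunit, which is controlled mainly by protein turnover, and did not pass the test. It was at 228 and 255 CPM against 254 and 249 CPM, and the groups overlapped (log2 0.06, SE 0.05, 95% interval -0.05 to 0.16, adjusted p = 0.509). Egln1 and Egln3, 2 of the HIF prolyl hydroxylases and HIF targets themselves, rose. Egln3 was at 213 CPM in both WT libraries and at 306 CPM in both anti-Act1 libraries (1.44-fold, log2 0.52, SE 0.05, adjusted p = 1.42e-11). Egln1 was at 222 and 234 CPM against 304 and 295 CPM (1.32-fold, log2 0.40, SE 0.05, adjusted p = 3.36e-08). The groups were apart in both genes, and no alternative ended either call. Egln2, the other prolyl hydroxylase and not a member, was at 52.4 and 47.4 CPM against 55.2 and 56.02 CPM and did not pass (log2 0.16, SE 0.06, adjusted p = 0.0629).

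Of the 11 response genes, 10 rose and none fell. Adm encodes adrenomedullin, a peptide that widens blood vessels, and had the largest log2 fold change of the 36 members. It had 10.8 and 12.8 CPM in the WT libraries and 20.6 and 20.9 CPM in the anti-Act1 libraries (1.75-fold, log2 0.81, SE 0.09, adjusted p = 6.18e-10). Ndrg1, a stress-induced gene, was at 202 and 198 CPM against 324 and 353 CPM (1.69-fold, log2 0.76, SE 0.05, adjusted p = 3.05e-16). Ddit4 (REDD1), an inhibitor of mTORC1, was at 37.5 and 34.3 CPM against 51.6 and 58.2 CPM (1.53-fold, log2 0.61, SE 0.07, adjusted p = 3.15e-10). No library of either group reached into the other in these 3 genes.

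Bnip3 and Higd1a encode mitochondrial proteins, and both rose. Bnip3, a receptor for the removal of mitochondria, was at 382 and 397 CPM against 560.2 and 505 CPM (1.37-fold, log2 0.45, SE 0.05, adjusted p = 2.67e-09). Higd1a, a small mitochondrial protein, was at 32.6 and 29.8 CPM against 42.3 and 41.1 CPM (1.34-fold, adjusted p = 2.49e-06). Both genes have near copies in the annotation, 5 and 2 respectively, none of them in the count table.

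P4ha1 and P4ha2 encode catalytic subunits of collagen prolyl 4-hydroxylase. P4ha2 was at 65.1 and 64.6 CPM against 87.3 and 94.97 CPM (1.41-fold, log2 0.49, SE 0.06, adjusted p = 2.57e-09), and P4ha1 at 311 and 313 CPM against 353 and 350.5 CPM (1.13-fold, adjusted p = 0.00972). The call of P4ha1 was lost when either anti-Act1 library was left out. Ankrd37, a small ankyrin-repeat protein, was at 45.7 and 43.4 CPM against 64.2 and 60.8 CPM (1.41-fold, adjusted p = 1.23e-08).

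Vegfa, the growth factor for blood vessels, was the most abundant response gene per length, at 341 FPKM on average in the WT libraries. Its change was small, from 1078 and 1107 CPM to 1294 and 1235 CPM (1.16-fold, log2 0.21, SE 0.05, adjusted p = 0.00115). Mxi1, an antagonist of Myc, was at 199 and 205 CPM against 258 and 253 CPM (1.26-fold, adjusted p = 9.37e-07). Kdm3a, a histone demethylase, was the response gene that did not pass, at 147 CPM in both WT libraries against 153 and 151 CPM (log2 0.05, SE 0.05, adjusted p = 0.593).

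Where several forms of an enzyme were members, the mix moved little. Shares were taken of the summed FPKM of the member genes of each enzyme, which leaves out forms that are not members (Pfkfb1, Pfkfb2, Eno3 and Egln2 among them), and with 2 libraries a group no exact test could pass the threshold. The largest shift was in the pair Pfkfb3 and Pfkfb4, where Pfkfb3 made up 75.6% and 77.1% in the WT libraries and 81.6% and 81.0% in the anti-Act1 libraries, a difference of 4.92 percentage points (pooled SD 0.80). P4ha2 went from 23.3% and 23.0% to 26.4% and 28.2% of its pair, and Pfkp from 27.9% and 28.6% to 32.1% and 30.7% of the phosphofructokinase subunits. Hk3 remained the leading hexokinase, at 59.0% and 56.5% against 55.1% and 54.7%, with Hk2 at 23.6% and 24.9% against 26.8% and 26.7%. Aldoa took 98.8% to 98.9% of the sum with Aldoc in every library, and Eno1 took 99.2% of the sum with Eno2.

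**Figure D4:**
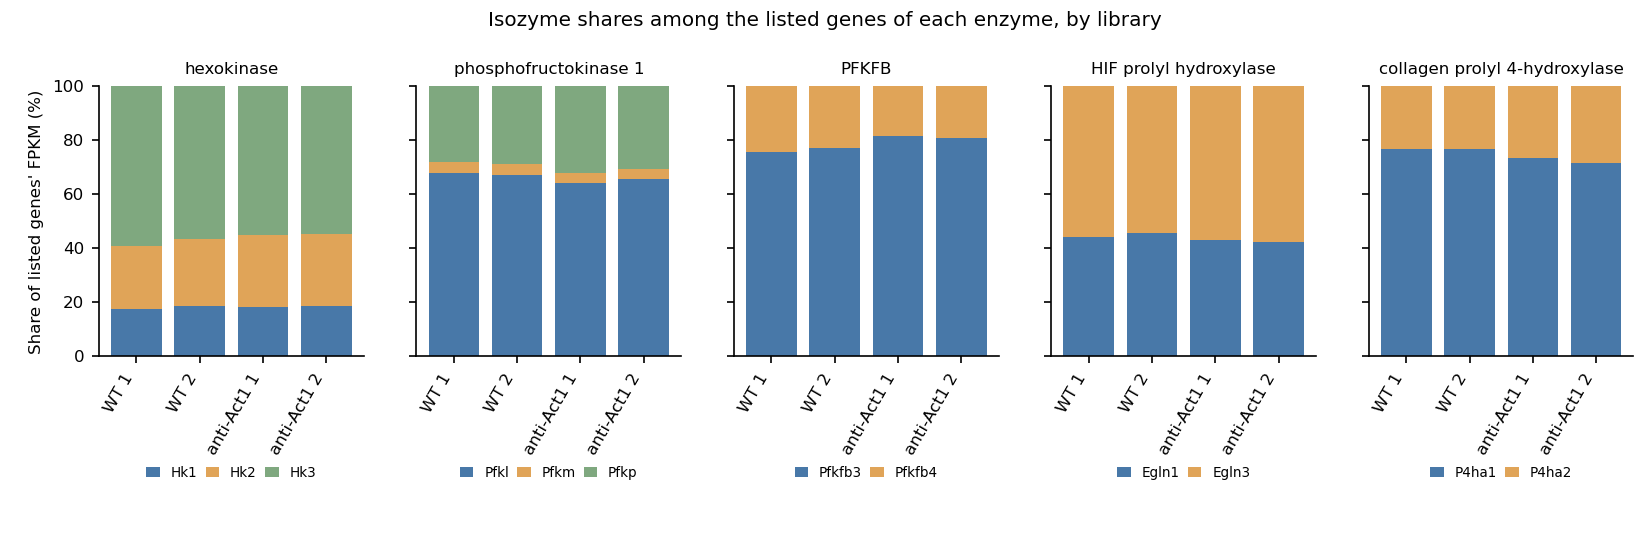
Share of the summed FPKM of the member genes of each enzyme (y axis, percent) taken by each of them, in each of the 4 libraries (x axis), for 5 enzymes; forms that are not members are left out. Pfkfb3 takes 75.6% and 77.1% in the WT libraries and 81.6% and 81.0% in the anti-Act1 libraries, and the other sets shift by smaller amounts.

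Genes of the same pathways outside the member list were counted for comparison. Of 46 other genes listed as hypoxia targets, 43 were tested. Of these, 29 rose and 1 fell (Trpm7, a channel kinase, log2 -0.26, adjusted p = 0.000235), with a median log2 fold change of 0.32. Whether HIF controls each of them was not tested. Of the 43, 69.8% were called, against 20.7% of all genes tested. The call of Trpm7 was lost without anti-Act1 replicate 2. Ero1l and Maff were among those with the smallest adjusted p values. Ero1l, an oxidase of the endoplasmic reticulum, was at 522 and 581 CPM against 1093 and 1044 CPM (1.94-fold, adjusted p = 1.18e-19). Maff, a small Maf transcription factor that inflammatory stimuli also induce, was at 11.2 and 10.8 CPM against 24.03 and 23.3 CPM (2.15-fold, adjusted p = 9.21e-15).

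Of 10 other genes of the oxygen-sensing machinery that were tested, 2 rose (Epas1 and Vhl) and 1 fell (Ep300, a coactivator, log2 -0.16, adjusted p = 0.0193), with a median of -0.04. The share called was 30.0%, against 20.7% of all genes tested. Epas1, which encodes HIF-2α, was at 8.48 and 8.68 CPM against 14.6 and 15.9 CPM (1.78-fold, log2 0.83, SE 0.10, adjusted p = 6.14e-09). Vhl, the ubiquitin ligase subunit that removes HIF-α, had a log2 fold change of 0.32 (SE 0.06, adjusted p = 6.23e-05). The call of Ep300 was lost when WT replicate 2, anti-Act1 replicate 1 or anti-Act1 replicate 2 was left out.

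Other genes of glycolysis and pyruvate entry had a median near 0. Of 34 listed, 28 were tested, 5 rose (Slc2a6, Galk1, Pgm2, Slc16a1 and Pdk3) and 1 fell (Slc16a7, a carrier of lactate and pyruvate, log2 -0.33, adjusted p = 0.000128), with a median of -0.02. The share called, 21.4% of the 28, was near the 20.7% of all genes tested. The call of Slc16a1 was lost without anti-Act1 replicate 2, and that of Pdk3 with DESeq2 and without WT replicate 1, anti-Act1 replicate 1 or anti-Act1 replicate 2. Slc2a6, of the glucose carrier family, was at 4.999 and 5.19 CPM against 11.04 and 12.4 CPM (2.30-fold, adjusted p = 3.42e-11). In the pentose phosphate pathway, Pgls rose (log2 0.20, adjusted p = 0.00654), G6pdx fell (log2 -0.21, adjusted p = 0.00408) and 7 of 9 genes did not pass. The share of the 9 that was called, 22.2%, was also near that of all genes tested. G6pdx, the entry enzyme, is X-linked, and without anti-Act1 replicate 1 no gene of that pathway was called. The call of Pgls was also lost without WT replicate 2.

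**Figure D5:**
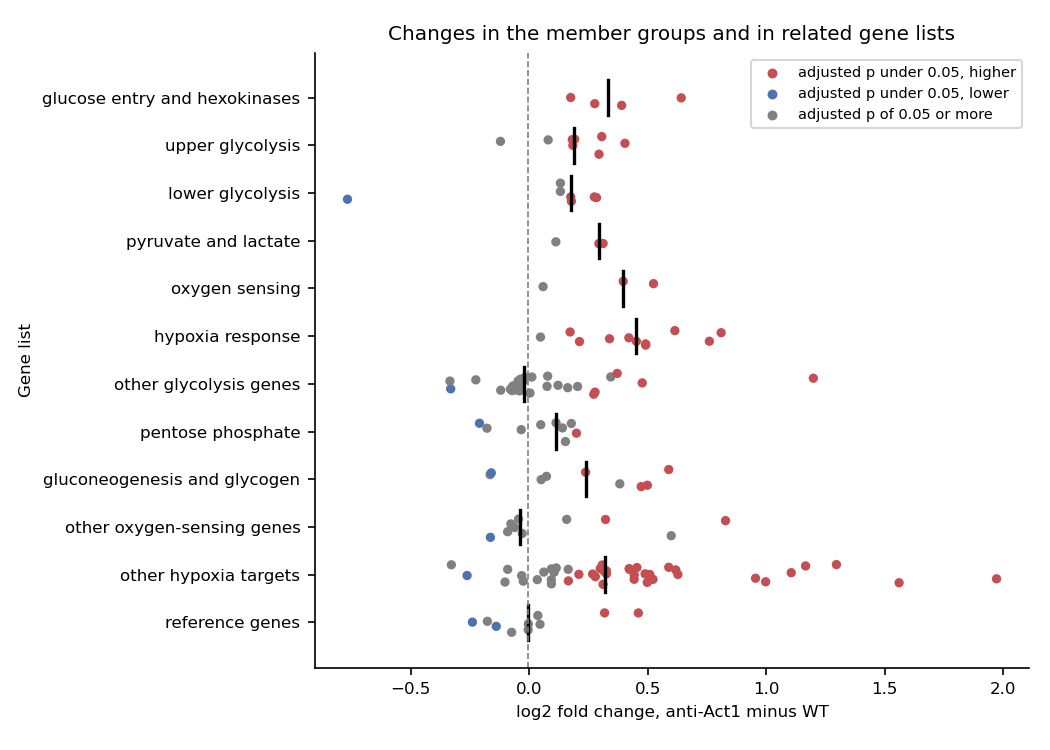
Log2 fold change between anti-Act1 and WT libraries (x axis) of every tested gene in 12 gene lists (y axis), the first 6 being the members by role; each point is a gene, and the black bar is the list's median. The medians are 0.45 for the hypoxia response, 0.32 for other hypoxia targets and -0.02 for other glycolysis genes.

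Markers of other cells were at low levels beside these results. The 9 neutrophil markers summed to 6.67 to 7.68 CPM over the 4 libraries, with S100a8 higher and S100a9, Ngp, Ltf and Retnlg lower in the anti-Act1 libraries. Sums were 1.76 to 2.48 CPM for 8 fibroblast markers, 26.3 to 32.1 CPM for 7 T cell markers, nearly all of it Cd4, 2.91 to 4.03 CPM for 5 B cell markers, 4.26 to 5.31 CPM for 6 dendritic cell markers and 0.549 to 0.810 CPM for 7 erythroid markers. Cd4 was called higher in the anti-Act1 libraries (log2 0.21, edgeR adjusted p = 0.0358), a call kept under 5 of 13 alternatives. Of the macrophage markers, 1 (Cd14) rose and 5 (Itgam, Mertk, C1qa, C1qb and Mrc1) fell. The 8 proliferation genes summed to 159 to 171 CPM, with only Top2a called, lower. Their part in the differences of the members was not tested.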

How the data were processed

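RNA sequencing counts of 4 libraries, 2 labelled WT and 2 labelled anti-Act1, were analysed. Per the study's methods, libraries were made with a NEBNext Ultra kit, sequenced as 150 bp pairs and aligned with TopHat. The submitters' processing notes also name Bowtie 0.12.2 and HTSeq 0.6.1 and the builds mm8 and mm10 without a role, so the build of the counts is not known. The authors deposited raw read counts per gene, and FPKM values that equal those counts divided by gene length and library total (within 0.1% for 13190 genes).

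Counts were tested with edgeR 4.0.16 (R 4.3.3): TMM, filterByExpr, a model of condition only, the two-sided quasi-likelihood test and Benjamini-Hochberg adjustment over 12494 genes, with a threshold of 0.05. Standard errors come from the same model, and CPM are TMM-scaled. A count of 0 allows a level of up to 3 counts, or 0.0395 to 0.0549 CPM, for counting error only. For 1 gene, an exact permutation test of 2 libraries against 2 cannot go below p = 0.333. The study calls its replicates biological without saying which mice they came from, and p-values measure the spread between these libraries. No test of a list was made. Alternatives were DESeq2 1.42.0, other normalizations and filters, limma 3.58.1 on the log2 scale of the deposited FPKM with 1 or 0.1 added, the replicate number as a block, and each library left out. Near copies were sought with blastn 2.17.0. The tests were checked on simulated counts with planted changes larger than that of any member. That check does not bear on differences as small as those of the members.

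The members, lists and tests were chosen with earlier results of these data known. Named were all members, the targeted gene, reference and marker genes, and the 3 genes of smallest adjusted p in each direction of each other list; Slc16a1, Pdk3, G6pc3, Egln2, Pfkfb1, Pfkfb2 and Eno3 were named after their values were seen. Some genes that the rule names are not given.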

Additional observations from a re-analysis of the deposited data

How the results depend on the processing

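Of the 28 members that rose, 15 kept their call under all 13 alternatives, 13 lost it under at least 1 and none changed sign. The edgeR alternatives (DESeq2's size factors, no composition normalization, no filter, a minimum of 10 counts) and DESeq2 called 28 or 29 members higher and 1 lower. The differences between replicates 1 and 2 were not shared by the 2 groups (correlation across genes, -0.0258). That value cannot show whether libraries of the same number were handled together. With the replicate block 2406 genes were called in place of 2586, and 29 members, 28 higher and 1 lower, as without it. Limma on log2(FPKM + 1) or log2(FPKM + 0.1) with a filter called 22 higher. Without the filter it called 15 of 36 members, 15 higher and 0 lower, together with 30 genes of the other lists in place of 49 and 1092 of all genes. The cause was not tested. Leaving out 1 library at a time gave 1700 to 2574 genes called, 20 to 30 members called, 19 to 29 higher and 1 to 2 lower, a median log2 fold change of the members of 0.23 to 0.33, 40 to 48 genes of the other lists and a shift of Pfkfb3 of 4.17 to 5.68 percentage points. The second member called lower was Pfkfb4, without WT replicate 2. Hif1a ranged from -0.0204 (without WT replicate 1, adjusted p = 0.859) to 0.14 (without WT replicate 2). The Pfkfb3 shift was 3.79 points with CPM in place of FPKM, which takes no account of gene length. The motif share of members was 91.4% with or without the bases after the start. At these depths, counting error is small for the members, which had 698 or more counts in each library, and each group rests on 2 libraries.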

Other observations

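Glycogen genes were among those that rose with the members. Of 9 tested genes of gluconeogenesis and glycogen, 4 rose, 1 fell and 4 did not pass, with a median log2 fold change of 0.24. The share called was 55.6%, against 20.7% of all genes tested. Gbe1, the branching enzyme, was at 47.5 and 48.1 CPM in the WT libraries and at 70.7 and 73.1 CPM in the anti-Act1 libraries (1.5-fold, edgeR adjusted p = 4.1e-11). Gys1, the glycogen synthase of most tissues, was at 121 and 120.2 CPM against 163 and 177 CPM (1.41-fold, adjusted p = 2.91e-10). Ugp2, which makes the UDP-glucose that the synthase uses, was at 134 and 137 CPM against 197 and 179 CPM (1.39-fold, adjusted p = 1.43e-09). The groups were apart in all 3 genes, and each kept its call in all 13 alternatives. G6pc3, a glucose 6-phosphatase, was the fourth that rose (log2 0.24, adjusted p = 0.00729), a call lost without WT replicate 1 and without anti-Act1 replicate 2. Pygb, the brain form of the phosphorylase that breaks glycogen down, fell (log2 -0.16, adjusted p = 0.0319), a call lost when WT replicate 2, anti-Act1 replicate 1 or anti-Act1 replicate 2 was left out, and with the replicate block.

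Galactose and glucose 1-phosphate enzymes that lead into the same pool also rose. Galk1, galactokinase, was at 45.3 and 39.8 CPM against 60.01 and 58.4 CPM (1.39-fold, adjusted p = 6.81e-08), and Pgm2, a phosphoglucomutase, at 158 and 161 CPM against 204 and 208 CPM (1.29-fold, adjusted p = 1.54e-07). No WT library reached the anti-Act1 libraries in either gene.

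Genes commonly used as references for RT-qPCR were in part called too, beside Gapdh. Of 10 others, B2m and Ppia rose and Actb and Rplp0 fell. That is 40.0% called, against 20.7% of all genes tested. Ppia was at 396 and 558 CPM against 649 and 664 CPM (log2 0.46, adjusted p = 1.99e-06), and 24 other annotated genes share a near-identical stretch with it. B2m had a log2 fold change of 0.32 (adjusted p = 1.08e-06), Actb of -0.24 (adjusted p = 0.000535) and Rplp0 of -0.14 (adjusted p = 0.0392). Among the values nearest to 0 were those of Tbp (20.7 and 21.1 CPM against 20.2 and 21.5 CPM) and Hprt (73.9 and 75.7 CPM against 75.6 and 73.5 CPM), whose groups overlapped. Ywhaz and Sdha, each with a log2 fold change of 0.04, were not called. Without anti-Act1 replicate 1 neither Actb nor Rplp0 was called, without WT replicate 1 or anti-Act1 replicate 2 Rplp0 was not called, and with DESeq2 1 of these 10 genes was called in each direction.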
